A study of Mus musculus with 6 samples.

Results

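Transcripts of the mitochondrial genome were compared with those of the nuclear factors that make and keep them, in brown adipocytes with and without uncoupling protein 1. The 4 mitochondrial transcripts are listed in the deposited table under the symbols COX1, ND4L, ND5 and ND6, and the 6 nuclear genes are Tfam, Tfb1m, Tfb2m, Polrmt, Tefm and Lrpprc. Genes were found by symbol, and the Ensembl row (mitochondrial genes) or RefSeq mRNA row (nuclear genes) with the highest mean stood for each. All 10 genes were found and tested among 16869 transcripts, out of 168326 rows in the table. Values are RPKM, in which reads are divided by the length of the transcript and by the depth of the library. Levels can then be compared between genes, except where part of a transcript is copied elsewhere in the genome, as for COX1 and the row labelled ND4L.

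Cells came from the interscapular brown fat of male 129SvEvS1 mice aged 5 to 6 wk, either wildtype (WT) or UCP1(-/-) (Ucp1-KO), on the same strain background. Both genotypes were grown from brown fat precursors in medium with insulin, T3 and rosiglitazone, after induction with isobutylmethylxanthine, indomethacin and dexamethasone, and no adrenergic agonist is named for the sequenced cells. There were 3 cultures of each genotype, numbered 10 to 12 for WT and 13 to 15 for Ucp1-KO, and these numbers pair no cultures. The labels do not say how many animals gave cells to a culture, so the tests measure the spread between cultures.

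The mitochondrial genome of the mouse is a small circle that encodes core subunits of the respiratory chain and the RNAs needed to translate them. Both of its strands are transcribed by Polrmt, the mitochondrial RNA polymerase. Tfam packages the DNA and bends it at the promoters, and Tfb2m helps Polrmt to open the promoter. Tfb1m methylates the small mitochondrial ribosomal RNA, Tefm carries Polrmt through elongation, and Lrpprc stabilises the finished messenger RNAs. Brown adipocytes are dense in mitochondria, in which uncoupling protein 1 lets protons back across the inner membrane and the energy leaves as heat.

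The targeted gene followed the labels. Ucp1 lay at 1775, 981 and 1157 RPKM in WT replicates 10, 11 and 12 and at 307, 409 and 398 RPKM in Ucp1-KO replicates 13, 14 and 15. All 3 Ucp1-KO cultures were below all WT cultures, with a log2 fold change of -1.78 and an unadjusted p of 0.000157 in limma, adjusted p = 0.868. The paper attributes the Ucp1 RNA left in Ucp1-KO cells to a remnant transcript that lacks exons and is not functional. It detected no UCP1 protein in these cells. The libraries held between 14989604 and 17727653 reads. Markers of fat cells were abundant in every culture (Fabp4 averaged 26960 RPKM in WT against 27686 RPKM in Ucp1-KO), and all 12 brown adipocyte markers were tested, 10 of them higher in Ucp1-KO (Cidea most, with a log2 fold change of 0.43) and none past an adjusted p of 0.05. Erythroid markers summed to at most 0.441 RPKM in any culture. Over all 16869 transcripts 0 passed an adjusted p of 0.05 (0.0%), 935 had an unadjusted p under 0.05 (5.54%) and 1888 had genotypes that did not overlap (11.2%). The smallest adjusted p of any transcript was 0.868. Ucp1 is among these transcripts and did not pass, so an adjusted p above 0.05 here does not show that a transcript is unchanged. The paper's own pairwise comparison with DESeq2 called Ucp1 and some other genes different between the genotypes.

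Several of these genes touch or are copied elsewhere in the genome, and the sequences show what a read of 50 bases can and cannot tell apart. The row labelled ND4L in the table is not the ND4L gene. By its identifier, ENSMUST00000082414, it is mt-Nd4 in the GENCODE M21 annotation of GRCm38, at chrM:10167-11544 on the plus strand. The gene annotated as mt-Nd4l lies just before it, at chrM:9877-10173, and the genes share 7 bases (capitals), the end of one reading frame and the start of the other:

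mt-Nd4l, last 50 bases (chrM:10124-10173, plus strand): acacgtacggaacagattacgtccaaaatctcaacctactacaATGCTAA

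mt-Nd4, first 50 bases (chrM:10167-10216, plus strand): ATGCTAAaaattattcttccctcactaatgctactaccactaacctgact

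The row labelled ND4L is therefore called mt-Nd4 from here on. The row of mt-Nd4l itself, which carries the same symbol, held between 0 and 1 read in each culture and did not exceed 0.225 RPKM.

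The first 876 bases of mt-Nd4 are held without a difference by a nuclear pseudogene, Gm28439, at chr1:24611535-24612410 on the minus strand. Of the 1329 windows of 50 bases in mt-Nd4, 827 (62.2%) were found in a nuclear transcript. The stretch in which the copy ends is shown with the shared bases in capitals:

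mt-Nd4, bases 847 to 906 (chrM:11013-11072, plus strand): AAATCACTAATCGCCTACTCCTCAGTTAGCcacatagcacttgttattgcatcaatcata

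COX1, listed under ENSMUST00000082402 and annotated as mt-Co1, lies at chrM:5328-6872 on the plus strand. Of its 1496 windows, 765 (51.1%) were found in a nuclear transcript. Gm29216 at chr1:24615706-24616197 aligns to bases 1054 to 1545 with 6 substitutions, all before base 1067, and Gm13340 on chromosome 2 holds the whole length with 37 substitutions. The start of the stretch that matches Gm29216 without a difference is shown in capitals:

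mt-Co1, bases 1037 to 1096 (chrM:6364-6423, plus strand): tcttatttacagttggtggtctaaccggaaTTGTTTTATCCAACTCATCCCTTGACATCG

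ND5 (mt-Nd5, chrM:11742-13565, plus strand) and ND6 (mt-Nd6, chrM:13552-14070, minus strand) had few or no such windows, 135 of 1775 (7.61%) and 0 of 470. These genes run toward each other and overlap by 14 bases, shown in capitals on the strand of each:

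mt-Nd5, last 50 bases (chrM:13516-13565, plus strand): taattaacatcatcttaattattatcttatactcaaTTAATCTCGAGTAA

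mt-Nd6, last 50 bases (chrM:13552-13601, minus strand): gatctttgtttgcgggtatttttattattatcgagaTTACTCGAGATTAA

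The library kit does not keep the strand of the RNA. Reads of ND6 and reads of any transcript from the other strand over the same bases cannot be told apart, and the ND6 values hold both.

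Listed mitochondrial genes with nearly all windows in an annotated nuclear transcript were also those at low levels, with 1 exception. The table lists 11 of the 13 protein-coding mitochondrial genes under an Ensembl identifier, and mt-Co3 and mt-Cytb were not analysed here. The 4 listed genes with over 95% of their windows in a nuclear transcript (mt-Co2, mt-Atp6, mt-Nd3 and mt-Nd4l) averaged at most 1.11 RPKM in either genotype. The 6 genes above 1000 RPKM (COX1, mt-Nd4, ND5, ND6, mt-Nd1 and mt-Nd2) had between 0 and 62.2% of windows copied. mt-Atp8 went with neither group: none of its 155 windows was found in a nuclear transcript, and it averaged 0.767 RPKM in WT against 1.34 RPKM in Ucp1-KO. Annotated copies on chromosome 1 lie between 24611535 and 24616197, and sequence between annotated transcripts was not examined. That includes the stretch between the copies of mt-Atp6 (ending at 24614651) and mt-Co2 (starting at 24614885), the genes on either side of mt-Atp8. The search therefore cannot tell whether mt-Atp8 has a copy there. Whether the assignment of uniquely identified reads set these low values was not tested.

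**Figure D1:**
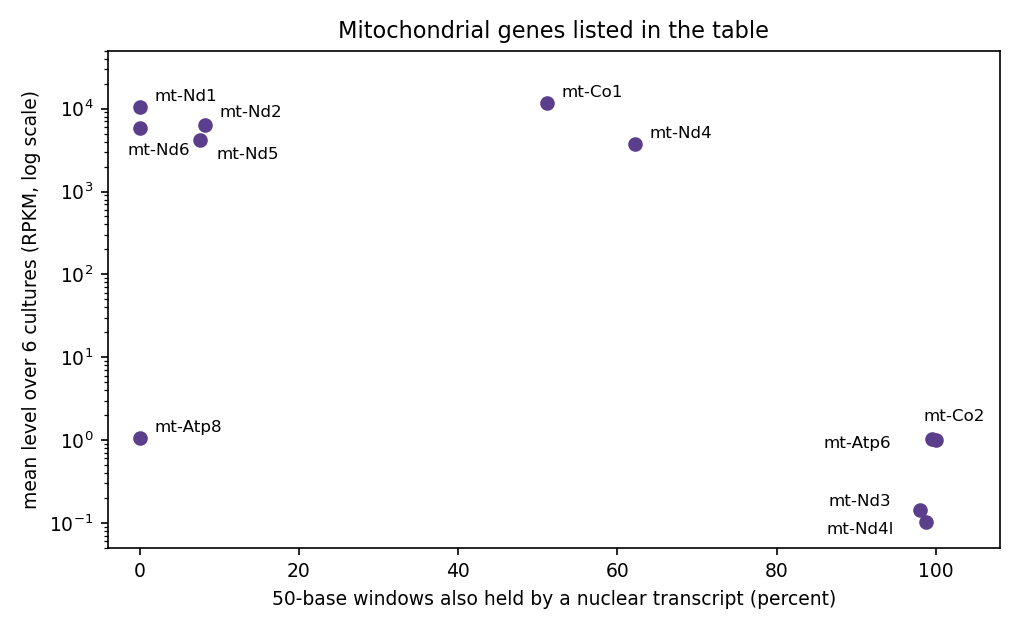
Mean level over 6 cultures (RPKM, log scale) of the 11 listed mitochondrial genes against the percent of their 50-base windows that a nuclear transcript also holds. The 4 genes above 95% lie near or below 1 RPKM, and the 6 genes with 0 to 62.2% copied lie above 1000 RPKM. mt-Atp8 lies as low with 0% found in annotated nuclear transcripts, and sequence between these was not examined.

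COX1, the catalytic subunit of cytochrome c oxidase (complex IV), was the most abundant of the 10 genes. It lay at 12662, 12356 and 14374 RPKM in the WT cultures (replicates 10, 11 and 12) and at 9956, 8018 and 12496 RPKM in the Ucp1-KO cultures (replicates 13, 14 and 15). Replicates 13 and 14 were below every WT culture, but replicate 15 lay between WT replicates 11 and 10, so the genotypes overlapped. The means were 13131 ± 1088 RPKM in WT against 10157 ± 2246 RPKM in Ucp1-KO (SD, n = 3). The Ucp1-KO mean was 77.3% of the WT mean. The log2 fold change of RPKM + 1 was -0.39 ± 0.22 (SE; limma, unadjusted p = 0.124, adjusted p = 0.875; exact two-sided permutation p = 0.2). With 3 cultures against 3 this permutation test cannot go below 0.1. Without Ucp1-KO replicate 15 the genotypes no longer overlapped, the log2 fold change was -0.55 and the unadjusted p was 0.0377, and without Ucp1-KO replicate 14 the fold change was -0.23.

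mt-Nd4, ND5 and ND6 are subunits of complex I, which passes electrons from NADH into the chain. mt-Nd4 lay at 4759, 3356 and 3972 RPKM in WT and at 4716, 2329 and 3446 RPKM in Ucp1-KO. ND5 lay at 5457, 3746 and 4440 RPKM in WT and at 4799, 2895 and 3937 RPKM in Ucp1-KO. ND6, the gene of the other strand, lay at 7360, 5698 and 6219 RPKM in WT and at 6094, 4153 and 5200 RPKM in Ucp1-KO. For each of the 3 genes WT replicate 10 was highest and Ucp1-KO replicate 14 lowest, and the other 4 cultures of both genotypes were mixed between them. Means in Ucp1-KO were 86.8%, 85.2% and 80.1% of WT for mt-Nd4, ND5 and ND6.

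None of these complex I transcripts passed the test. The log2 fold change was -0.25 ± 0.28 for mt-Nd4 (adjusted p = 0.909), -0.24 ± 0.24 for ND5 (adjusted p = 0.8999) and -0.33 ± 0.20 for ND6 (adjusted p = 0.875; SE, limma). All 4 mitochondrial transcripts had a lower mean in Ucp1-KO, with a median log2 fold change of -0.29 against -0.0016 over all transcripts tested, and 0 of the 4 separated the genotypes against 11.2% of all. The direction of mt-Nd4 rested on 1 culture: without Ucp1-KO replicate 14 its log2 fold change was 0.02, and the median of the 4 was -0.12. ND5 was then at -0.05 and ND6 at -0.18, and without WT replicate 10 mt-Nd4 was at -0.12 and ND5 at -0.10. In cultures, fewer cells of a type and less RNA per cell cannot be told apart.

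**Figure D2:**
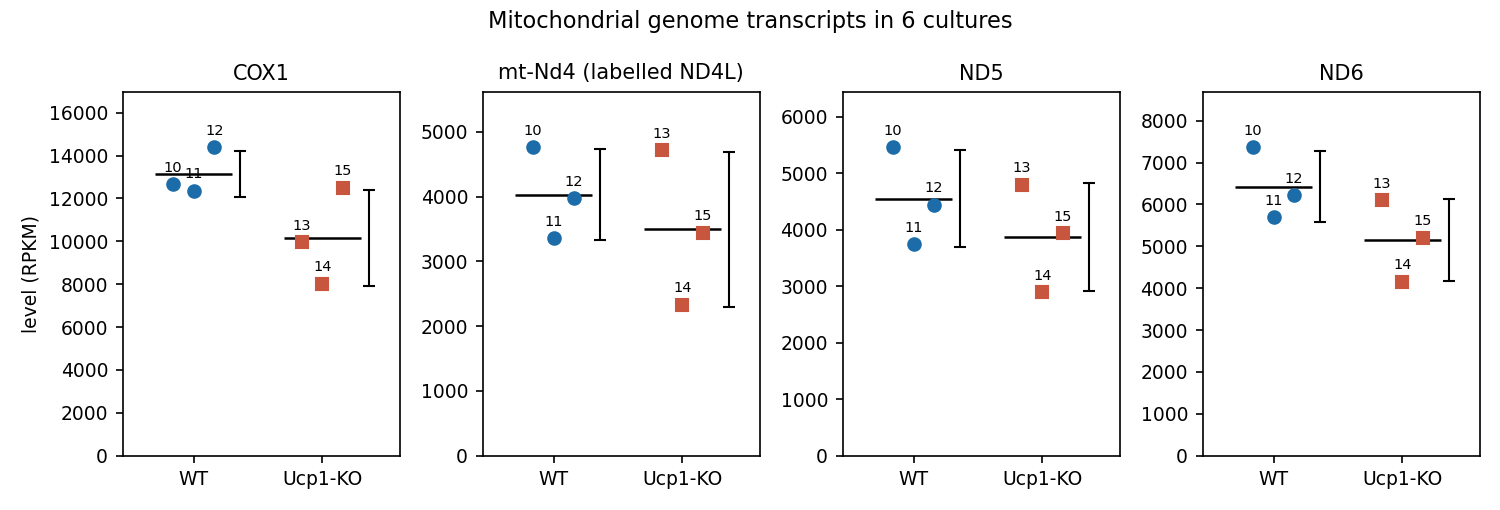
Level (RPKM, from 0) of the 4 mitochondrial transcripts in each culture, with points numbered by replicate, a line at the mean and a bar of 1 SD beside it (n = 3). Ucp1-KO replicate 14 is the lowest point in all 4 panels, and the genotypes overlap in each.

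mt-Nd1 and mt-Nd2, further complex I genes listed only under their Ensembl identifiers, were lowest in the same culture. mt-Nd1 averaged 10788 ± 1314 RPKM in WT against 10023 ± 2341 RPKM in Ucp1-KO, 92.9% of WT. mt-Nd2 averaged 6555 ± 1083 RPKM in WT against 6092 ± 1734 RPKM in Ucp1-KO, also 92.9%. That culture was Ucp1-KO replicate 14, and the genotypes overlapped for both (exact two-sided permutation p = 0.7 and 0.8, n = 3).

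The 4 mitochondrial transcripts together took 3.99%, 3.35% and 3.90% of the reads in the WT cultures and 3.38%, 2.30% and 3.39% in the Ucp1-KO cultures. The means were 3.75% ± 0.346 and 3.03% ± 0.626 (SD, n = 3), a difference of -0.721 percentage points (exact two-sided permutation p = 0.3). Ucp1-KO replicate 14 alone was below 3%, and without it the difference was -0.360 percentage points. COX1 made up the larger part of this share, with 2.03% of reads in WT and 1.57% in Ucp1-KO.

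Replicate 14 also stood apart in another cell type's genes. The 5 macrophage markers (Adgre1, listed as Emr1, Cd68, Csf1r, Lyz2 and Ptprc) were all highest there and summed to 803 RPKM, against 41.4 and 160 RPKM in the other Ucp1-KO cultures and 55.4 to 169 RPKM in the WT cultures. Lyz2, the lysozyme of macrophages, reached 657 RPKM in it and 29.98 to 127 RPKM in the other 5. All 5 had a positive log2 fold change, from 0.25 for Adgre1 to 0.91 for Lyz2, with 0 passing the test. The 3 endothelial markers tested were lower, with a median log2 fold change of -0.41, from -0.53 for Cdh5 to -0.13 for Kdr, and 0 passing the test. Of 5 skeletal muscle markers only Acta1 was abundant enough to test (log2 fold change 0.31, adjusted p = 0.927). All 7 stromal and preadipocyte markers tested had a negative log2 fold change in Ucp1-KO, from -0.64 for Thy1 to -0.08 for Ly6a, whose mean RPKM was higher in Ucp1-KO. Their median was -0.44, 0 passed the test, and Pdgfra alone did not overlap between genotypes, 1 of 7 against 11.2% of all transcripts (unadjusted p = 0.0506 in limma). Their summed level was 594 to 967 RPKM in Ucp1-KO and 687 to 1606 RPKM in WT. Their part in the mitochondrial values was not tested.

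On the scale of RPKM, in the rows that stood for the genes, the order of the WT means was COX1, ND6, ND5 and mt-Nd4. This order held within each of the 6 cultures. Over the cultures the range of COX1 did not meet that of ND6, while the ranges of ND6 and ND5, and those of ND5 and mt-Nd4, overlapped. Further rows of these symbols from other annotations differed in level. Their means over the 6 cultures ran from 787 to 5478 RPKM for ND5 and from 0.509 to 8728 RPKM for the symbol ND4L. The place of mt-Nd4 depended on the length that reads were divided by. With the 1000 bases of the RPKM unit replaced by 1000 windows of 50 bases that no nuclear transcript holds, a measure chosen after the values were seen, the WT means were 27753 for COX1, 11060 for mt-Nd4, 7096 for ND6 and 5058 for ND5. That measure leaves every fold change as it is, and it assumes that reads in copied windows were not counted, which was not tested.

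Ratios within a culture do not depend on the library total. ND5 lay at 0.431, 0.303 and 0.309 of COX1 in the WT cultures and at 0.482, 0.361 and 0.315 in the Ucp1-KO cultures. mt-Nd4 lay at 0.376, 0.272 and 0.276 of COX1 in WT and at 0.474, 0.291 and 0.276 in Ucp1-KO. ND6 lay at 0.581, 0.461 and 0.433 of COX1 in WT and at 0.612, 0.518 and 0.416 in Ucp1-KO. In all 3 ratios the highest values belonged to Ucp1-KO replicate 13 and WT replicate 10, 1 culture of each genotype. ND6 to ND5 was the steadiest, between 1.27 and 1.52, a range of 0.26 on the log2 scale against 0.56 to 0.80 for the ratios to COX1. None of the 4 ratios separated the genotypes (exact two-sided permutation test, adjusted p = 0.8 for each).

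The closest relation across the 6 cultures was that of mt-Nd4 with ND5. The Pearson r of log2(RPKM + 1) was 0.983 for mt-Nd4 with ND5 (rho = 1, exact permutation p = 0.00139 for r and 0.00278 for rho). It was 0.961 for ND5 with ND6 (rho = 0.886, exact permutation p = 0.00694 and 0.0333) and 0.933 for mt-Nd4 with ND6 (rho = 0.886, exact permutation p = 0.00972 and 0.0333). Only mt-Nd4 with ND5 had an adjusted permutation p under 0.05 (0.0292 for r, 0.0583 for rho) among the 21 relations within the mitochondrial and within the nuclear genes, which were computed after the values were seen. Without WT replicate 10 and Ucp1-KO replicate 14, the cultures farthest from the median of mt-Nd4 and of ND5, r was 0.979, 0.718 and 0.707 for the 3 pairs. COX1 followed less closely, with r of 0.565 to 0.694 and rho of 0.543 to 0.714 (exact permutation p = 0.128 to 0.260 for r and 0.136 to 0.297 for rho) and 0.214 to 0.263 without Ucp1-KO replicates 13 and 14. All 4 share a library total in each culture, and its part in these relations was not tested.

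The nuclear factors were far less abundant, at means of 3.62 to 33.6 RPKM over the 6 cultures. Tfam (chr10:71225468-71238328) lay at 15.5, 14.7 and 15.4 RPKM in the WT cultures and at 13.6, 15.9 and 18.95 RPKM in the Ucp1-KO cultures. The WT cultures were close together, and the Ucp1-KO cultures reached below and above them. The log2 fold change was 0.07 ± 0.13 (SE; limma, adjusted p = 0.946; exact permutation p = 0.7), and it was -0.05 without Ucp1-KO replicate 15.

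Polrmt (chr10:79736125-79746604), the polymerase, lay at 8.46, 6.85 and 7.92 RPKM in WT and at 10.04, 8.61 and 7.66 RPKM in Ucp1-KO. Tfb2m (chr1:179528052-179546305), its partner at the promoter, lay at 3.61, 3.03 and 3.11 RPKM in WT and at 3.54, 3.93 and 4.50 RPKM in Ucp1-KO. Both had a higher mean in Ucp1-KO with 1 Ucp1-KO culture inside the WT range. The log2 fold change was 0.16 ± 0.13 for Polrmt (adjusted p = 0.889) and 0.23 ± 0.12 for Tfb2m (adjusted p = 0.872; SE, limma). Without Ucp1-KO replicate 13 that of Polrmt was 0.07. Tfb2m was the least abundant of the 10, with 124 to 166 reads in a culture.

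Tefm (chr11:80136674-80142871), the elongation factor, was the only one of the 10 whose genotypes did not overlap in the row that stood for the gene. Other rows of the remaining 9 symbols were checked where their mean was over 1 RPKM. Of these, 1 of 10 further COX1 rows and the 1 Ensembl row of Tfb2m above that mean (of 3 listed) did not overlap. Tefm lay at 22.5, 22.5 and 23.5 RPKM in WT and at 26.9, 24.8 and 27.6 RPKM in Ucp1-KO, where every culture was above every WT culture. The Ucp1-KO mean was 116% of the WT mean, with a log2 fold change of 0.20 ± 0.083 (SE; limma, unadjusted p = 0.0461, adjusted p = 0.868; exact permutation p = 0.1, the smallest this design gives). The unadjusted p was above 0.05 without each culture in turn (0.0526 to 0.116), with rows of all annotations, under both other scalings and in limma-voom (0.0557 to 0.0839). It was below 0.05 with a pseudocount of 0.1 RPKM (0.0468) and with no minimum (0.0254). Summed rows repeat the main value (0.0461), since Tefm has only 1 RefSeq mRNA row. Against 11.2% of all transcripts without overlap and 5.54% with such an unadjusted p, 1 of 10 genes is near the background. The other 2 rows of Tefm in the table, from further annotations, showed 116% of WT and no overlap either, and rows of 1 gene share reads.

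Tfb1m (chr17:3519250-3557796), the ribosomal RNA methyltransferase, lay at 8.96, 12.04 and 10.4 RPKM in WT and at 10.3, 10.7 and 13.2 RPKM in Ucp1-KO, with both ranges largely shared. Lrpprc (chr17:84705247-84790786) was the most abundant factor and lay at 35.4, 32.4 and 33.3 RPKM in WT and at 33.4, 36.6 and 30.9 RPKM in Ucp1-KO. Lrpprc was also the steadiest of the 10, with a coefficient of variation of 6.08% over the 6 cultures against 24.5% for mt-Nd4. The log2 fold change was 0.11 ± 0.14 for Tfb1m (adjusted p = 0.912) and -0.00 ± 0.094 for Lrpprc (adjusted p = 0.997; SE, limma). That of Tfb1m was 0.02 without WT replicate 10 and 0.01 without Ucp1-KO replicate 15.

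Of the 6 factors 5 had a higher mean in Ucp1-KO and 1 a lower one, with a median log2 fold change of 0.14, and 0 passed an adjusted p of 0.05. Ucp1-KO replicate 15 was the highest culture for Tfam, Tfb1m, Tfb2m and Tefm and the lowest for Lrpprc. The factors' medians lie opposite in sign to that of the mitochondrial transcripts, and 0 of the 10 differences passed an adjusted p of 0.05.

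**Figure D3:**
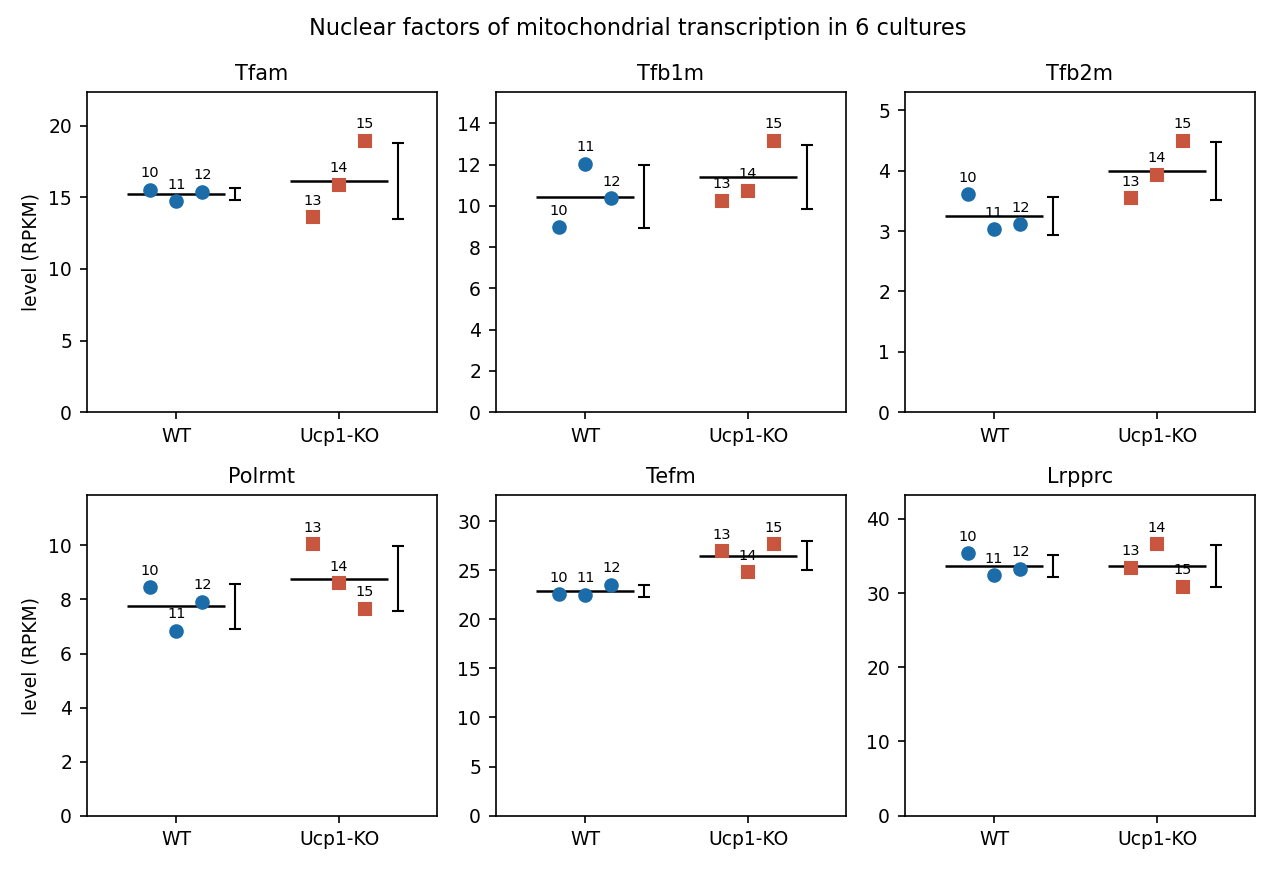
Level (RPKM, from 0) of the 6 nuclear factors in each culture, with points numbered by replicate, a line at the mean and a bar of 1 SD beside it (n = 3). Only the Tefm panel shows all Ucp1-KO cultures (24.8 to 27.6 RPKM) above all WT cultures (22.5 to 23.5 RPKM).

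**Figure D4:**
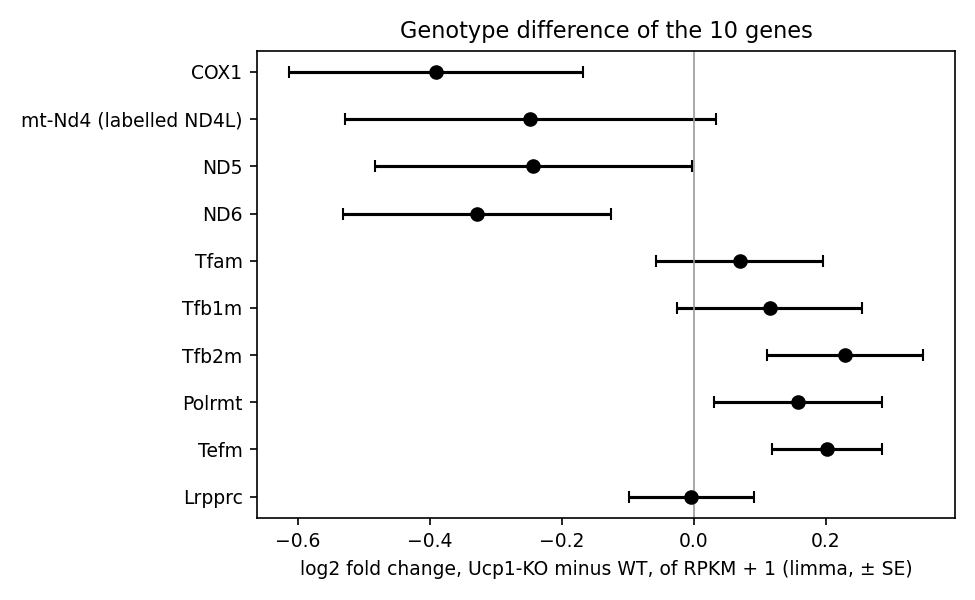
Log2 fold change (Ucp1-KO minus WT, of RPKM + 1) of the 10 genes with the standard error from limma. The 4 mitochondrial transcripts lie between -0.39 and -0.24 and the 6 factors between -0.00 and 0.23, and no adjusted p is below 0.868.

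The relation of the mitochondrial transcripts to their factors was computed for 24 pairs over the 6 cultures. Pearson r of log2(RPKM + 1) was negative in 19 pairs and positive in 5, from -0.58 for COX1 with Lrpprc to 0.32 for mt-Nd4 with Polrmt. Both genotypes were pooled, and all 4 mitochondrial transcripts had lower and 5 of 6 factors higher means in Ucp1-KO. The part of the genotype means in r was not tested. The 24 pairs are not independent, since mt-Nd4, ND5 and ND6 were closely related to each other. No relation had a permutation p under 0.05, and the smallest adjusted value was 0.902 for r and 0.822 for rho (exact permutation test over all pairings). For COX1 with Lrpprc, rho was -0.371 and the exact permutation p was 0.222 for r and 0.497 for rho. Without the 2 cultures farthest from the median of Lrpprc, Ucp1-KO replicates 14 and 15, r of this pair was 0.0488. It was -0.0232 without replicate 14 alone and -0.610 without replicate 15 alone, so the value rested on replicate 14. With mt-Nd4, ND5 and ND6, r of Lrpprc was -0.233, -0.147 and -0.126 (rho = 0.0857 for each, exact permutation p = 0.668, 0.796 and 0.840 for r and 0.919 for rho). These turned to 0.831, 0.884 and 0.988 without replicate 14, the opposite sign (exact permutation p = 0.0667, 0.0417 and 0.0167 over 5 cultures), and to 0.796, 0.942 and 0.991 without replicates 14 and 15.

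Tfb1m had the most negative values with the complex I transcripts, r of -0.470 for mt-Nd4, -0.544 for ND5 and -0.549 for ND6 (rho = -0.771 for each, exact permutation p = 0.351, 0.246 and 0.2375 for r and 0.103 for rho). Without WT replicate 10 and Ucp1-KO replicate 15 these r were -0.345, -0.381 and -0.120. Single cultures moved them in both directions: without Ucp1-KO replicate 14 they were -0.895, -0.931 and -0.971 (exact permutation p = 0.075, 0.0417 and 0.0167 over 5 cultures), and without WT replicate 10 they were -0.216, -0.206 and -0.182. With any 1 culture left out, 0 of the 24 relations had an adjusted p under 0.05. For Tfam, r was 0.191 with COX1 and -0.349, -0.266 and -0.327 with mt-Nd4, ND5 and ND6 (rho = 0.0857, -0.314, -0.314 and -0.429, exact permutation p = 0.676, 0.474, 0.608 and 0.511 for r and 0.919, 0.564, 0.564 and 0.419 for rho). Without Ucp1-KO replicates 13 and 15 these r were -0.548, -0.270, -0.162 and -0.321. The sign of r was the same with each culture left out in 14 of the 24 pairs.

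**Figure D5:**
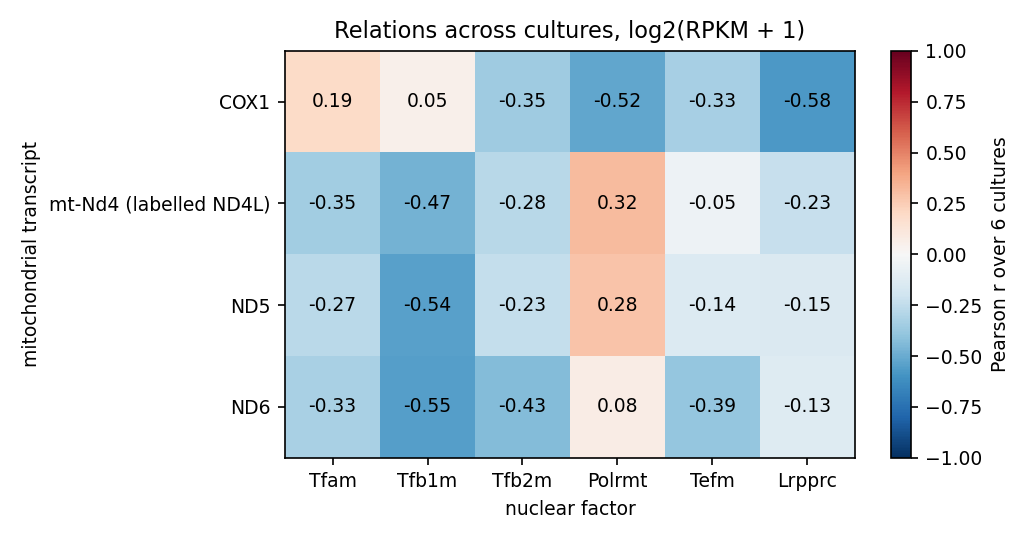
Pearson r of log2(RPKM + 1) over 6 cultures for each mitochondrial transcript (rows) with each nuclear factor (columns), on a colour scale from -1 to 1. Of the 24 values 19 are negative, from -0.58 to 0.32, and none had a permutation p under 0.05. Both genotypes are pooled, and the 24 pairs are not independent.

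Promoters of the factors were read for the core motifs of the regulators that biogenesis of mitochondria is known for. Windows from 250 bases before to 50 after the start were taken from RefSeq on GRCm38.p6 for all 6 factors, and both strands were searched. For 5 of the 6 (all but Lrpprc) the start that RefSeq sets the window at lies inside the gene span given above, by 23 to 718 bases. The NRF1 core GCGCATGC stood in the windows of Tfb2m and Polrmt, 2 of 6, and in 2.71% of all 32851 windows. The ETS core CCGGAAG, which GABPA binds, stood in the windows of Tfam, Polrmt and Tefm, 3 of 6, and in 8.86% of all. The stretches are shown, on the strand of the gene, with the motif or its reverse complement in capitals, and a match is not a bound site:

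Tfb2m, NRF1 core (chr1:179546245-179546274, minus strand): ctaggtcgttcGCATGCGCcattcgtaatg

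Polrmt, NRF1 core (chr10:79746686-79746735, minus strand): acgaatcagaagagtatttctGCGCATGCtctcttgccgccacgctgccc

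Tfam, ETS core (chr10:71238064-71238112, minus strand): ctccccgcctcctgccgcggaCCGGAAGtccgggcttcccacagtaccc

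Polrmt, ETS core (chr10:79746597-79746645, minus strand): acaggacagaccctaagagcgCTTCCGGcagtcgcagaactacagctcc

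Tefm, ETS core (chr11:80142154-80142183, minus strand): tttttgttggagcacacgaaaCCGGAAGtt

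The regulators themselves were measured. Nrf1 averaged 4.86 ± 0.783 RPKM in WT against 4.78 ± 0.872 RPKM in Ucp1-KO, and Gabpa 23.9 ± 2.55 and 24.6 ± 1.199 RPKM (SD, n = 3). Of the 10 regulators listed (with the coactivators Ppargc1a, Ppargc1b and Pprc1), 7 were higher and 3 lower in Ucp1-KO, with a median log2 fold change of 0.14 and 0 past an adjusted p of 0.05. Ppargc1a, the cold-induced coactivator, had the highest log2 fold change of the list, 0.38 (against -0.06 for Pprc1, the lowest), at 15.5, 7.12 and 10.5 RPKM in WT and 14.7, 11.8 and 15.99 RPKM in Ucp1-KO. Only Gabpb2, a partner of Gabpa, did not overlap between genotypes, 1 of 10 and near the 11.2% of all transcripts, with 5.31 ± 0.416 RPKM in WT against 6.64 ± 0.464 RPKM in Ucp1-KO (log2 fold change 0.28; limma, unadjusted p = 0.0309, adjusted p = 0.868).

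Further along the pathway, 19 genes that cut, polyadenylate, protect or degrade mitochondrial RNA were all tested. There were 14 higher and 5 lower in Ucp1-KO, with a median log2 fold change of 0.08 and 0 past an adjusted p of 0.05, and 4 of 19 had genotypes that did not overlap, against 11.2% of all transcripts tested. Slirp, the RNA-binding partner of Lrpprc, lay at 95.9, 94.9 and 88.6 RPKM in WT and at 107, 121 and 118 RPKM in Ucp1-KO, with every Ucp1-KO culture above every WT culture (log2 fold change 0.30 ± 0.090 SE; limma, unadjusted p = 0.0123, adjusted p = 0.868). Grsf1, a protein of the mitochondrial RNA granule, lay lowest in the list, with a log2 fold change of -0.37 and overlapping genotypes (adjusted p = 0.875).

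The remaining lists of the pathway held no transcript past the test. Of 12 genes of mitochondrial DNA replication tested, 7 were higher and 5 lower, with a median log2 fold change of 0.03, from -0.23 for Tk2 to 0.18 for Mgme1. Of 4 termination factors of the Mterf family tested, 3 were higher and 1 lower, with a median of 0.09, from -0.47 for Mterf4 to 0.16 for Mterf2, which the table lists as Mterfd2 and Mterfd3. The nuclear partners of COX1 in complex IV, 10 genes, split 6 higher and 4 lower with a median of 0.05, from -0.11 for Cox8a to 0.41 for Cox7c, whose row averaged only 2.85 RPKM in Ucp1-KO. The nuclear core of complex I, 7 genes, split 4 and 3 with a median of 0.04, from -0.09 for Ndufv1 to 0.17 for Ndufv2. None of these 33 genes passed an adjusted p of 0.05, and 0 had an unadjusted p under 0.05, against 5.54% of all transcripts tested. Cox4i1, a nuclear subunit beside COX1, averaged 1067 ± 19.6 RPKM in WT against 1012 ± 43.4 RPKM in Ucp1-KO, with a log2 fold change of -0.08.

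The genes most like COX1 across the 6 cultures, among 7519 genes with a mean of at least 5 RPKM, were Svep1 (r = 0.980), Chchd10 (0.938), Wdr73 (0.937), Vamp2 (0.934) and Bcl7b (0.933). Chchd10, a protein of the mitochondrial intermembrane space, lay at 601, 565 and 584 RPKM in WT and at 541, 499 and 571 RPKM in Ucp1-KO. Only 15 genes had an r above 0.9 with COX1, against 185 with Tfam. Those most like Tfam were Mat2b (r = 0.990), Tmem206 (0.989), Bckdk (0.989), Arl5a (0.986) and Ppp2r5a (0.986), and each of these was highest in Ucp1-KO replicate 15 and lowest in Ucp1-KO replicate 13. These genes were picked by r, so no p is given, and with 6 cultures many genes reach a high r.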

How the data were processed

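RNA of 6 cultures was sequenced in 50-base single reads, which the authors mapped to mouse build 38. They assigned uniquely identified reads to transcripts in Genomatix software, and the deposited values are RPKM. No deposited counts were used here, and reads were recovered from RPKM as given below. All 6 value columns matched a culture by name. The members and gene lists were chosen with earlier results of these data known.

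RefSeq rows with a mean of at least 0.5 RPKM, with the 4 mitochondrial Ensembl rows, were compared by limma 3.58.1 in R 4.3.3 (empirical Bayes with intensity trend, log2(RPKM + 1), no covariates, Benjamini-Hochberg), a test for RPKM in place of the authors' DESeq2; limma-voom on recovered reads was an alternative. A fold change on this scale understates that of low genes. Exact two-sided permutation tests served single values. Reads and library totals were recovered from RPKM and transcript lengths, with 16863 of 16865 RefSeq rows, 93.3 to 93.5% of Ensembl values and all 60 values of the members whole within 0.05 reads. A floor of 3 reads per 1000 bases is 0.169 to 0.200 RPKM, for counting error only. Named are the members, the other listed mitochondrial genes, the highest, lowest and smallest p of each list, and the 5 genes most like COX1 and Tfam; Fabp4, Nrf1, Gabpa and Cox4i1 were named after their values were seen. The scripts were tested on simulated data. Windows of 50 bases were searched in GENCODE M21 transcripts (GRCm38) on both strands. Other steps ran in Python 3.11.15 (scipy 1.17.1, numpy 2.4.6, matplotlib 3.10.9, pandas 2.3.3).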

Additional observations from a re-analysis of the deposited data

How the results depend on the processing

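A pseudocount of 0.1 RPKM, no minimum, rows of all annotations, median-of-ratios scaling, rescaling to reads outside the mitochondrial transcripts and limma-voom on recovered reads left 0 transcripts at an adjusted p under 0.05. Summing the rows of a symbol could change only mt-Nd4, since every other member had 1 row of the annotation used. For the other members those values repeat the main ones. Of 116 values under planned settings that kept all cultures, 114 kept direction and side of the threshold of an adjusted p of 0.05. A count of transcripts was taken as kept where it stayed near the main count. The level per window without a nuclear copy was not planned and is not among the 116. It moved the WT mean from 13131 to 27753 for COX1 and from 4029 to 11060 for mt-Nd4. The exceptions among the 116 were Lrpprc, whose log2 fold change was 0.0101 with median-of-ratios scaling, and the count at an unadjusted p under 0.05. That count was 5193 with rows of all annotations against 935, where more rows were tested. Limma-voom gave 985 at an unadjusted p under 0.05. Without single cultures the main count ran from 314 to 1761. Leaving out cultures also turned mt-Nd4 (-0.493 to 0.0155), Tfam (-0.0461 to 0.178), Lrpprc (-0.0645 to 0.0540) and the log2 ratios of ND5 (-0.0244 to 0.312), mt-Nd4 (-0.105 to 0.295) and ND6 (-0.0709 to 0.207) to COX1 between genotypes. The cause was not tested. Of the 10 fold changes, 7 kept their sign throughout, from -0.55 to -0.23 for COX1, -0.41 to -0.05 for ND5, -0.46 to -0.18 for ND6, 0.01 to 0.21 for Tfb1m, 0.16 to 0.29 for Tfb2m, 0.07 to 0.24 for Polrmt and 0.17 to 0.25 for Tefm. The difference in read share ran from -0.920 to -0.360 percentage points. No paired analysis was possible because the genotypes share no replicate numbers.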
